A study of Mus musculus with 2 samples.

Results

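The genes that build, load and switch on the MHC class I complex were followed through the immune cells of the mouse aortic adventitia, the outer coat of the vessel. The set holds 10 genes of the 55386 features in the count matrices, chosen by name with earlier results of these data known: *B2m*, *H2-K1*, *H2-D1*, *H2-Q7*, *Tap1*, *Tap2*, *Tapbp*, *Psmb8*, *Psmb9* and *Nlrc5*. All 10 were found in both libraries. CD45-positive cells came from RankCre Rosa26eYFP mice of about 16 weeks, in which Cre made from the *Rank* gene switches on a lasting eYFP reporter in all descendants of the cell. A library of 3 pooled animals was made at steady state, without treatment. The other was made from 2 pooled animals given angiotensin II (AngII), a hormone that raises blood pressure and inflames the vessel wall, at 1.8 µg/kg/min for 10 days from an osmotic pump. Each condition is thus a single library of pooled animals, no difference between conditions could be tested, and pool, library and treatment cannot be told apart. Intervals below are exact, at the 95% level, and cover counting error only.

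MHC class I molecules show peptides from inside the cell to CD8 T cells. Proteins are cut by the proteasome, the peptides are pumped into the endoplasmic reticulum, and there they are fitted onto a heavy chain paired with β2-microglobulin. Interferons raise much of this pathway in most cell types. *B2m* encodes β2-microglobulin, *H2-K1* and *H2-D1* the classical heavy chains, and *H2-Q7* a nonclassical heavy chain. *Psmb8* and *Psmb9* encode proteasome subunits that replace constitutive ones in the immunoproteasome. *Tap1* and *Tap2* encode the subunits of the peptide transporter, and *Tapbp* encodes tapasin, which bridges the transporter and the heavy chain. *Nlrc5* encodes the transactivator of class I genes.

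Of the 10 genes, 8 lie on chromosome 17 of GRCm38 (GENCODE M21, 1-based positions). *Tapbp* spans chr17:33915899-33929292 and *H2-K1* chr17:33996017-34000347. *Psmb9* (chr17:34181987-34187764), *Tap1* (chr17:34187553-34197225), *Psmb8* (chr17:34197721-34201454) and *Tap2* (chr17:34203527-34216321) follow each other as neighbours, and the ends of *Psmb9* and *Tap1* overlap. *H2-D1* spans chr17:35262730-35267499 and *H2-Q7* chr17:35439155-35443773. *B2m* lies at chr2:122147686-122153083 and *Nlrc5* at chr8:94434356-94527272. *Psmb9* is read from the opposite strand to *Tap1*, and their RefSeq start sites are 226 bases apart, so that 275 bases of their 300-base promoter windows are shared. H2 heavy chains are alike in sequence, which matters for counting. Among 91-base reads drawn from the last 500 bases of the annotated coding transcripts, 4.55% of those of *H2-Q7* also occurred in another gene (*H2-Q5*), against 0.0756% for *H2-K1* and 0% for the other 8 genes.

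Promoter windows (250 bases before and 50 after the RefSeq start, GRCm38.p6) were held for 8 of the genes, not for *Tap2* and *Nlrc5*. They are shown because many of the members are known to be driven by interferon and by *Nlrc5*. Searched on both strands were an interferon-stimulated response element, GAAA and again GAAA with any 2 bases between; GAANNGAAA, a shorter form of it; TTCNNNGAA, a gamma-activated site; TGACG, found in the X2 box to which the *Nlrc5* complex is recruited; and CCAAT. Capitals mark the response element in *B2m*, GAANNGAAA in the heavy chains, TGACG and CCAAT, or their reverse complements. Stretches run from 10 bases before the first match to the start or within 2 bases of it. Where an annotated exon covered the bases, only 30 bases around TGACG are given.
B2m, chr2:122147538-122147685, plus strand: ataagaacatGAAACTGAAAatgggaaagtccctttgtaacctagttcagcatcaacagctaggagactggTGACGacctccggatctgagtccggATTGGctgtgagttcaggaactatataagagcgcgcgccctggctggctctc
H2-K1, chr17:34000348-34000447, minus strand: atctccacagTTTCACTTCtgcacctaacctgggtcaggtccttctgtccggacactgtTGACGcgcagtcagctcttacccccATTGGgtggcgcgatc
H2-Q7, chr17:35439032-35439154, plus strand: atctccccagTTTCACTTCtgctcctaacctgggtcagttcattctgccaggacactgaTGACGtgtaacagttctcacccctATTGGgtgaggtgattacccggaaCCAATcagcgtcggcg
H2-D1, chr17:35262980-35263009, plus strand: gccgggacactgaTGACGcgctggcaggtc
Tap1 and Psmb9, chr17:34187457-34187486, plus strand: gcccagagacaggTGACGacagagggtcct

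TGACG was found for 6 of the 8 genes (*B2m*, *H2-K1*, *H2-D1*, *H2-Q7*, *Tap1* and *Psmb9*), against 20.8% of all 32851 promoter windows in the table. A gene was counted where any of its windows matched, whereas that share is per window. The heavy chains, which are alike in sequence, were counted as separate genes. *Tap1* and *Psmb9* hold the same copy, in their shared window. The response element was found in *B2m* alone (3.44% of all windows), and GAANNGAAA in *H2-K1*, *H2-D1* and *H2-Q7* (7.52%). TTCNNNGAA was found in *Psmb8* alone (8.3%), and CCAAT in 7 of 8 (37.4%). These are matches of letters, and binding was not measured.

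The files hold 346 barcodes for steady state and 4419 for AngII, which are also the numbers of cells analysed in the study. The thresholds named in its methods (300 to 6500 genes and at most 5% mitochondrial counts) left 306 and 4198 of them, and these were used here. The libraries differed in depth. A kept cell held a median of 9105 UMIs (unique molecular identifiers, each standing for 1 captured transcript) at steady state and 1092 on AngII, where 45.5% of cells held under 1000. No barcode was shared. *Ptprc*, which encodes CD45, was found in 93.8% and 63.6% of kept cells, at 912 and 830 CPM, the UMIs of a gene scaled to 1000000 UMIs of the cells summed. Each cell was assigned to the list of 8 lineage markers of which it showed the most, with at least 2 markers and no tie. That placed 95.1% of cells at steady state and 80.6% on AngII, but 34.5% of the AngII assignments rested on a lead of 1 marker (6.87% at steady state). Names of cell types below stand for these gates. Of genes outside the lists, the macrophage gene *Mrc1* was at 2198 CPM in the macrophage gate against 200.5 in other cells at steady state. On AngII it was at 1154 against 215.5. In the gate of type-2 conventional dendritic cells on AngII, *Cd74* was at 28989 CPM against 12114 in other cells. *Cst3* went the other way there (3428 against 5563), though not at steady state (6019 against 5114). The other genes checked so were higher in their own gates.

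At steady state, T cells carried the most RNA of the 4 presenting genes of the 3 classes with at least 20 cells, and resident macrophages the least *H2-K1*, *H2-Q7*, *Psmb8* and *Nlrc5*. *H2-K1* was at 1881 CPM in 41 T cells (interval 1748 to 2022), 1341 in 51 B cells (1214 to 1478) and 749.7 in 120 resident macrophages (705 to 796), so that none of the intervals overlapped. *H2-Q7* differed more, with 527 CPM in T cells, 198 in B cells and 27.4 in resident macrophages, again without overlap. *B2m*, the partner of every heavy chain, stood closer together, at 2088, 1595 and 1735 CPM, and the intervals of B cells and resident macrophages overlapped. *H2-D1* did not separate T cells (1720 CPM) from resident macrophages (1665 CPM). *Psmb8* followed the order of *H2-K1*, at 519, 363 and 207 CPM without overlap. *Tap1*, *Tap2* and *Tapbp* lay between 42.2 and 181 CPM, and neighbours in their order had overlapping intervals.

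The 2 dendritic cell lineages stood apart from each other by processing genes and not by *B2m*. Type-1 conventional dendritic cells, a lineage known for showing outside antigens on class I, held *Tap1* at 316 CPM on AngII (291 to 344, 178 cells), the highest of the 12 classes with at least 20 cells. Type-2 conventional dendritic cells, known chiefly for showing antigens to CD4 T cells, held 107 CPM (89.0 to 127, 120 cells). *Psmb9* was at 873 against 207 CPM, *Psmb8* at 1417 against 562 and *Tap2* at 203 against 63.6. *B2m* was at 1485 and 1487 CPM, the lowest values of the 12 classes, and *H2-K1* was lower in the type-1 cells (944 against 1335 CPM). This comparison was chosen after the levels had been seen.

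Ratios of type-1 over type-2 cells were 2.96 for *Tap1* (2.43 to 3.62), 3.19 for *Tap2* (2.48 to 4.14), 2.52 for *Psmb8* (2.31 to 2.75) and 4.22 for *Psmb9* (3.68 to 4.85) on AngII. *H2-Q7* was 1.69 times higher, making 5 of 10 members at least 1.5 times higher, against a background of 16.1% of 8586 genes. At steady state, with 11 and 14 cells, *Tap1* (6.81, 3.52 to 14.5), *Tap2* (3.54), *Psmb8* (2.78) and *Psmb9* (3.34) passed the same limit, 4 of the 8 members with at least 20 UMIs, against 18.0% of genes. *H2-K1* was at a ratio of 0.711 at steady state (0.550 to 0.913) and 0.707 on AngII (0.660 to 0.758). Of the other pathway genes, *Psme1*, a subunit of the proteasome activator, was at 2.59 and 2.69 in the libraries, and *Psme2* at 1.54 and 2.51. The constitutive subunits *Psmb5*, *Psmb6*, *Psmb7*, *Psma1* and *Psma3* were within 1.5 times in both libraries, and *Psmd1* was at 0.364 at steady state. At steady state *Erap1* (2.83), *H2-M3* (2.95) and *Psmb10* (1.56) also passed upward. On AngII *Tapbpl* (4.56), *H2-Q6* (2.08) and *Pdia3* (1.52) did. *Irf2* was lower in both libraries (0.477 and 0.540), and *Irf1* was at 5.86 at steady state and 0.666 on AngII.

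**Figure D1:**
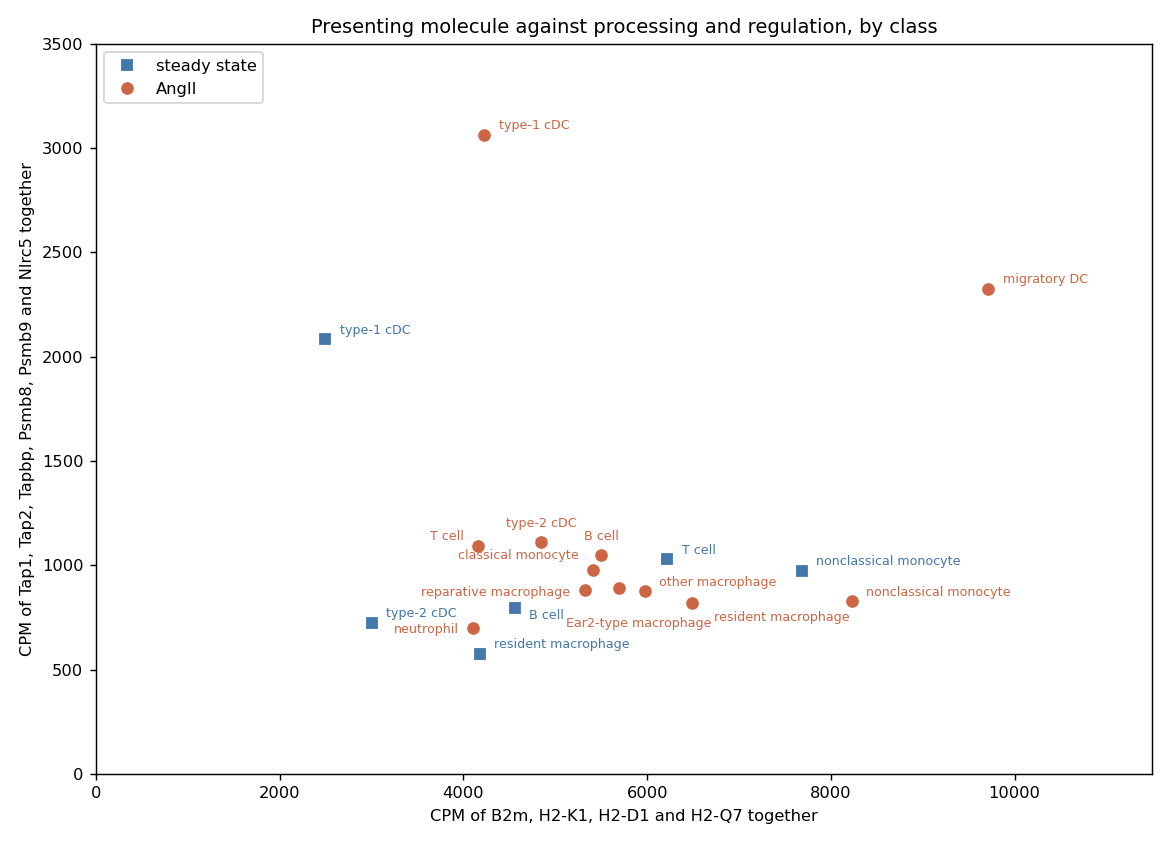
Summed CPM of *B2m*, *H2-K1*, *H2-D1* and *H2-Q7* (x axis) against summed CPM of *Tap1*, *Tap2*, *Tapbp*, *Psmb8*, *Psmb9* and *Nlrc5* (y axis) for the 12 gated classes with at least 20 cells on AngII (circles) and those of them with at least 10 cells at steady state (squares). Type-1 conventional dendritic cells (cDC) lie high at 2085 and 3064 CPM on the y axis, and migratory dendritic cells (DC) lie farthest right, at 9714 CPM on the x axis and 2327 on the y axis.

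Set against the presenting molecule, the share of processing transcripts in type-1 conventional dendritic cells was the largest of the classes measured in either library. There were 72.5 UMIs of the 6 processing genes for each 100 of the 4 presenting genes on AngII (70.0 to 75.1) and 83.5 at steady state (73.9 to 94.4). Resident macrophages had 12.6 on AngII (12.1 to 13.1) and 13.8 at steady state (12.8 to 14.8), with overlapping intervals. T cells had 16.6 at steady state (14.9 to 18.4) and 26.3 on AngII (24.8 to 27.8).

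Migratory dendritic cells, marked by *Ccr7* and *Fscn1*, were gated on AngII only (32 cells) and were high for most members. Of the classes with at least 20 cells they had the highest *H2-K1* (2848 CPM, 2652 to 3055), *H2-Q7* (743, 645 to 852) and *Nlrc5* (113, 76.7 to 160). The next class for *H2-K1* was the B cell at 1552 CPM (up to 1670) and for *H2-Q7* the T cell at 274 CPM (up to 304). In *H2-D1* they could not be separated from nonclassical monocytes (3019 and 3002 CPM), which in turn had the highest *B2m* (3651 CPM, 3341 to 3981, 27 cells). Classes of 12 cells lay higher still for some genes. Type-2 innate lymphoid cells on AngII had *H2-K1* at 4280 CPM and natural killer cells at 3612 CPM. Neutrophils, with 266 cells, were lowest for *H2-K1* (813 CPM), *H2-Q7* (26.9), *Psmb8* (228), *Psmb9* (104) and *Nlrc5* (5.97, from 4 UMIs), but not for *Tap2* (89.5) or *Tapbp* (212).

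**Figure D2:**
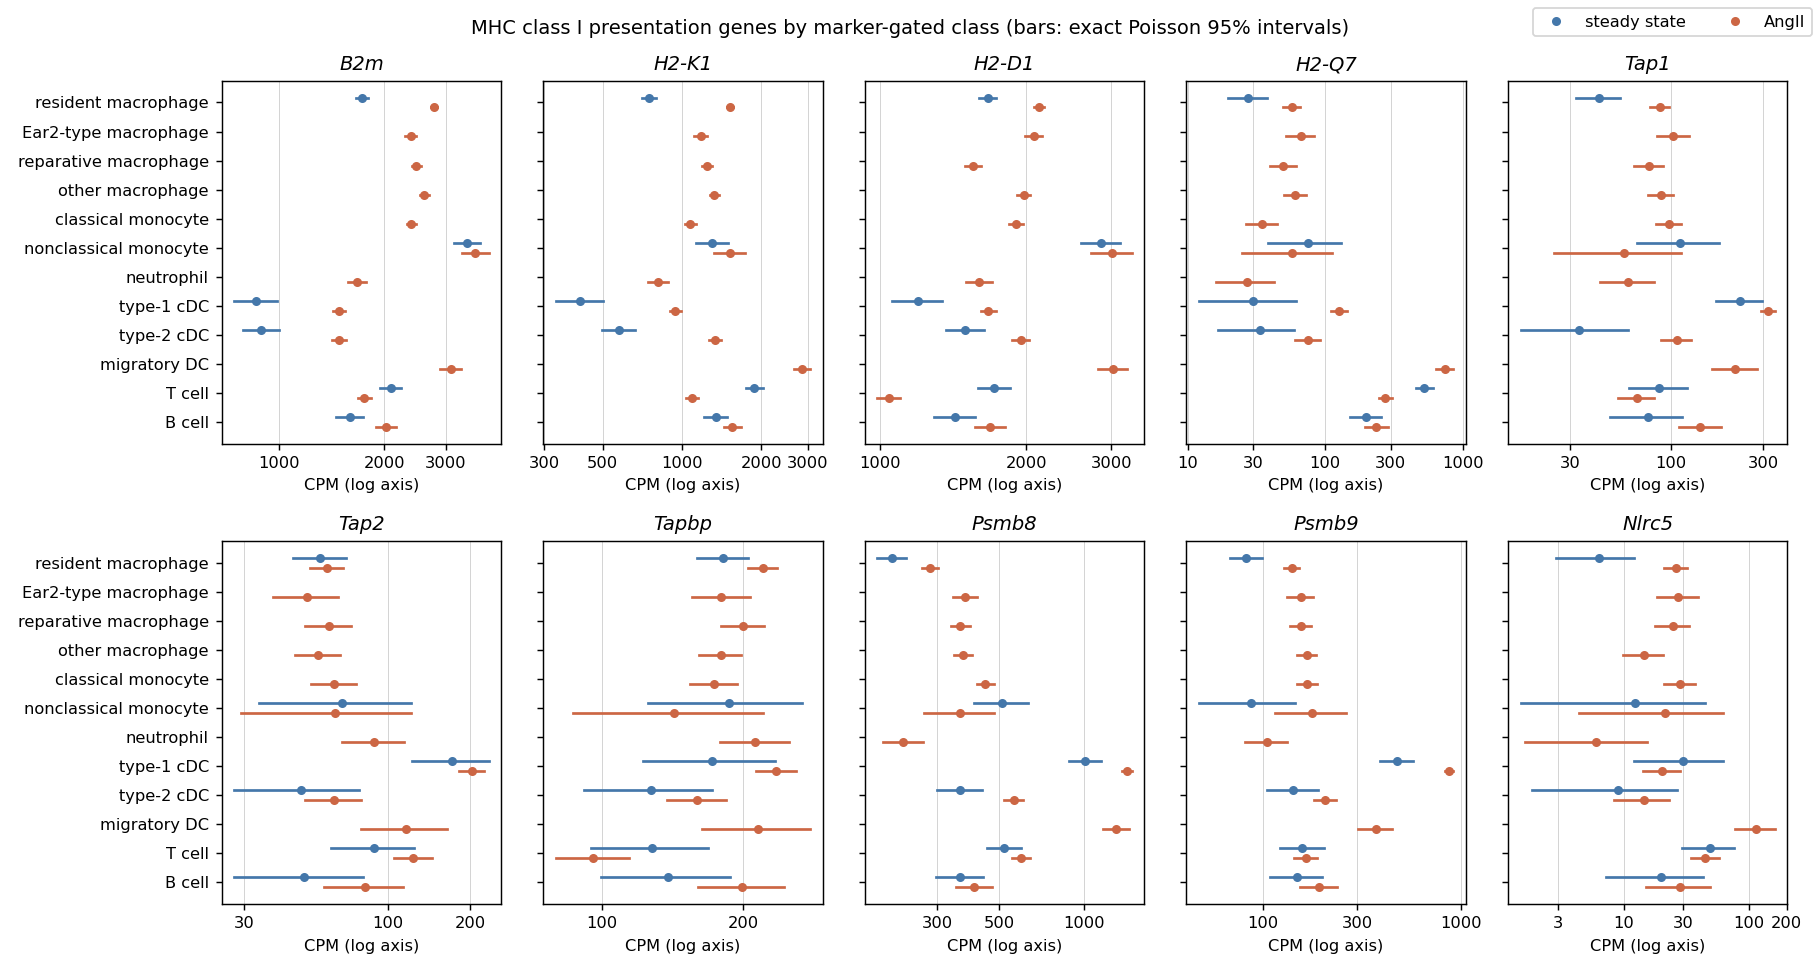
CPM of each gene (log axis, with its own range in each panel) in the gated classes of both libraries, with exact Poisson 95% intervals as bars; 12 classes are shown on AngII and those of them with at least 10 cells at steady state. *H2-Q7* covers the widest range of the presenting genes on AngII, from 26.9 CPM in neutrophils to 743 in migratory dendritic cells (DC), while *Psmb9* stands out in type-1 conventional dendritic cells (cDC) at 873 CPM.

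The macrophage subsets of the AngII library differed gene by gene. Resident macrophages, gated on *Lyve1*, *Folr2*, *Cd163*, *F13a1*, *Gas6* and *Stab1* (632 cells), had more *B2m* (2785 CPM) and *H2-K1* (1517) than the Ear2-type (2383 and 1175, 151 cells) or reparative subset (2475 and 1243, 301 cells), without overlap of the intervals. Reparative macrophages, gated on genes such as *Arg1* and *Spp1*, had the least *H2-D1*, 1556 CPM (1498 to 1616) against 2130 (2081 to 2179) in resident cells. *Psmb8* went the other way, lowest in the resident subset (284 CPM, 266 to 302) and at 378 and 364 CPM in the Ear2-type and reparative subsets. *Tap1* (76.5 to 102 CPM) and *Tap2* (50.8 to 61.1 CPM) had overlapping intervals in the 3 subsets. The number of *H2-K1* UMIs per *H2-D1* UMI was 0.712 in resident (0.687 to 0.738), 0.567 in Ear2-type (0.529 to 0.607) and 0.799 in reparative macrophages (0.755 to 0.845).

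Next, resident macrophages of the AngII library were set against those of steady state, the only macrophage subset with at least 20 cells in both. *H2-K1* was at 1517 CPM on AngII and 749.7 at steady state, a ratio of 2.02 (1.89 to 2.16). *B2m* was at 2785 against 1735 CPM (1.60, 1.53 to 1.68) and *H2-D1* at 2130 against 1665 (1.28, 1.22 to 1.34). *H2-Q7* was at 57.4 CPM (196 UMIs) against 27.4 (39 UMIs), a ratio of 2.09 (1.48 to 3.03). The heavy chains therefore did not stand in the same proportion in the libraries, with 0.712 UMIs of *H2-K1* per *H2-D1* UMI on AngII and 0.450 at steady state (0.419 to 0.484).

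Among processing genes of the same cells, *Tap1* was at 87.5 against 42.2 CPM (2.07, 1.57 to 2.78) and *Psmb9* at 140 against 82.3 (1.70, 1.39 to 2.10). *Tap2*, the partner of *Tap1* in the transporter, was at 60.0 and 57.0 CPM, a ratio of 1.05 (0.810 to 1.38). *Psmb8* (1.37, 1.20 to 1.56) and *Tapbp* (1.22, 1.05 to 1.41) had intervals above 1. With cells thinned to 1000 UMIs, *Psmb8* was at 2.24 (1.35 to 3.94) and *Tap2* at 0.550 (0.268 to 1.20). *Psmb8* was at 1.51 without the cell with the most UMIs, and *Psmb9* at 2.64 as a mean over cells. *Nlrc5* was at 26.0 CPM (89 UMIs) against 6.33 (9 UMIs), a ratio of 4.11 with a wide interval (2.07 to 9.29). In all, 6 of 10 members were at least 1.5 times higher on AngII and none lower, against a background of 16.4% of 10184 genes higher. The median ratio was 1.65 for the members and 1.01 for all genes. Over all macrophages (1916 and 133 cells) it was again 6 of 10, with *Psmb8* (1.503) in and *B2m* (1.45) out, against a background of 16.7%. The members that passed in both were *H2-K1*, *H2-Q7*, *Tap1*, *Psmb9* and *Nlrc5*.

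Depth differed between these cells, with a median of 1864 UMIs on AngII and 9906 at steady state. Resident macrophages of the AngII library with at least 5000 UMIs (193 cells) had the 4 presenting genes at 6568 CPM together (6472 to 6665), those with at least 1000 but under 5000 (276 cells) at 6010, and those with under 1000 (163 cells) at 7004. All lay above the 4177 CPM of steady state (4071 to 4285). *H2-K1* was at 1538 CPM in the deepest of these bins. In cells with fewer than 2 markers of any other list, a gate that left 159 AngII cells and 15 at steady state, the ratio of the presenting genes fell to 1.16 (1.05 to 1.27) from 1.55, and that of the processing genes was 1.40 (1.04 to 1.93) against 1.42. *H2-K1* stayed past 1.5 times there (1.82, 1.44 to 2.34), whereas *B2m* (1.04, 0.913 to 1.20) and *H2-Q7* (1.36, 0.481 to 4.71) did not. *Psmb8* was at 0.965 (0.590 to 1.62) and *Tap1* at 3.79 (0.915 to 33.6) in those few cells. Markers were counted over all UMIs of a cell, so a deeper cell can fail this gate more readily. Depth and RNA of other cells cannot be told apart in it. The summed T-cell markers were at 10.6 CPM in steady-state and 20.8 CPM in AngII resident macrophages, and the B-cell markers at 490.2 and 269 CPM. Their part in the ratios was not tested.

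Other genes of the pathway in resident macrophages were mixed. *Calr* (1.70) and *Erap1* (1.52), which act in peptide loading and trimming, *Psmb10* (1.72) and *Psme2* (1.71) of the inducible proteasome, and *H2-T22* (1.96) and *H2-T24* (3.64) of the other class I molecules were at least 1.5 times higher on AngII. So were 3 of 6 constitutive proteasome genes, *Psmb5* (1.55), *Psmb6* (1.64) and *Psmb7* (1.56). Over all macrophages, *H2-Q6* was lower (0.604). In resident macrophages, the 10 genes of the type I interferon list together were at 635 CPM on AngII and 257 at steady state. That is a ratio of 2.47 (2.21 to 2.77). The 10 of the gamma interferon list were at 488 and 428 CPM (1.14, 1.04 to 1.25). Over all macrophages the type I list was at 2.315 (2.09 to 2.565). The gamma list was lower there, at 483 against 664.5 CPM (0.727, 0.680 to 0.778). In B cells the type I list was at 9.41 (5.48 to 17.5, from 14 UMIs at steady state) and in T cells at 1.40 (1.02 to 1.95). The gamma list was at 1.70 (1.31 to 2.22) in B cells and 0.942 (0.782 to 1.14) in T cells.

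T cells went the other way for the heavy chains. *H2-K1* was at 1093 CPM on AngII (292 cells) and 1881 at steady state (41 cells), a ratio of 0.581 (0.531 to 0.636). *H2-D1* was at 1041 against 1720 CPM (0.605, 0.551 to 0.664) and *H2-Q7* at 274 against 527 (0.521, 0.438 to 0.621). *B2m* was at 1756 against 2088 CPM (0.841, 0.776 to 0.912). These 3 heavy chains were lower by at least 1.5 times, 3 of 10 members against a background of 16.8% of 7894 genes lower. No member was higher by that much, against 32.6% of genes. The median ratio was 0.802 for the members and 1.13 for all genes. *Psmb8* (1.15), *Psmb9* (1.04) and *Nlrc5* (0.926) had intervals that held 1. *H2-Q4* (0.276), *H2-Q6* (0.382) and *H2-M3* (0.484), 3 of the 5 measured genes among the other class I molecules, were also lower. The constitutive subunits *Psmb5* (2.38), *Psmb6* (2.42), *Psmb7* (3.01), *Psma1* (2.57) and *Psma3* (1.90) were higher, as were *Calr* (1.61), *Pdia3* (1.84) and *Tapbpl* (2.98) of the loading and trimming genes. *Irf2* (0.652) and *Rfxank* (0.397) were lower.

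The shallowest T cells of the AngII library had the least *H2-K1*, 655 CPM (495 to 851) in 121 cells under 1000 UMIs, against 1465 (1290 to 1657) in 97 cells of at least 1000 but under 5000 and 1068 (1006 to 1132) in 74 cells of at least 5000. All 3 lay under the steady-state value. The gate rested on a lead of 1 marker in 88 of the 292 AngII T cells and 2 of 41 at steady state. The 8 macrophage markers together were at 286 CPM in AngII T cells (258 to 317, 8 of 8 with UMIs) and 626 in those of steady state (550.3 to 709.8, 7 of 8, *Fcgr1* at 0), against 12536 and 14774 in macrophages. The T-cell markers were at 7087 and 4251 CPM in the T cells. *Apoe*, a gene abundant in macrophages, went the other way, at 651 CPM in AngII T cells and 15.3 at steady state. The part of such RNA in the result was not tested. Single T cells varied widely: with at least 1000 UMIs, the presenting genes ranged from 0 to 19216 CPM on AngII with a median of 3542 (171 cells), and from 3574 to 16277 with a median of 5409 at steady state (41 cells).

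In B cells (111 against 51) the members were level to somewhat higher on AngII. *Tap1* was at 142 against 75.8 CPM (1.87, 1.15 to 3.16) and *Tap2* at 82.9 against 49.4 (1.68, 0.902 to 3.28). These were the 2 of 9 measured members past 1.5 times, against a background of 16.8% of 4965 genes. *B2m* (1.27), *H2-K1* (1.16) and *H2-D1* (1.18) had intervals above 1. *H2-T22* (1.95), *Pdia3* (1.68) and *Irf1* (1.55) were higher, and *Psma1* (0.662), *H2-Q4* (0.627), *Rfxap* (0.615) and *Rfx5* (0.611) lower. Outside macrophages, no other class had 20 cells in both libraries.

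**Figure D3:**
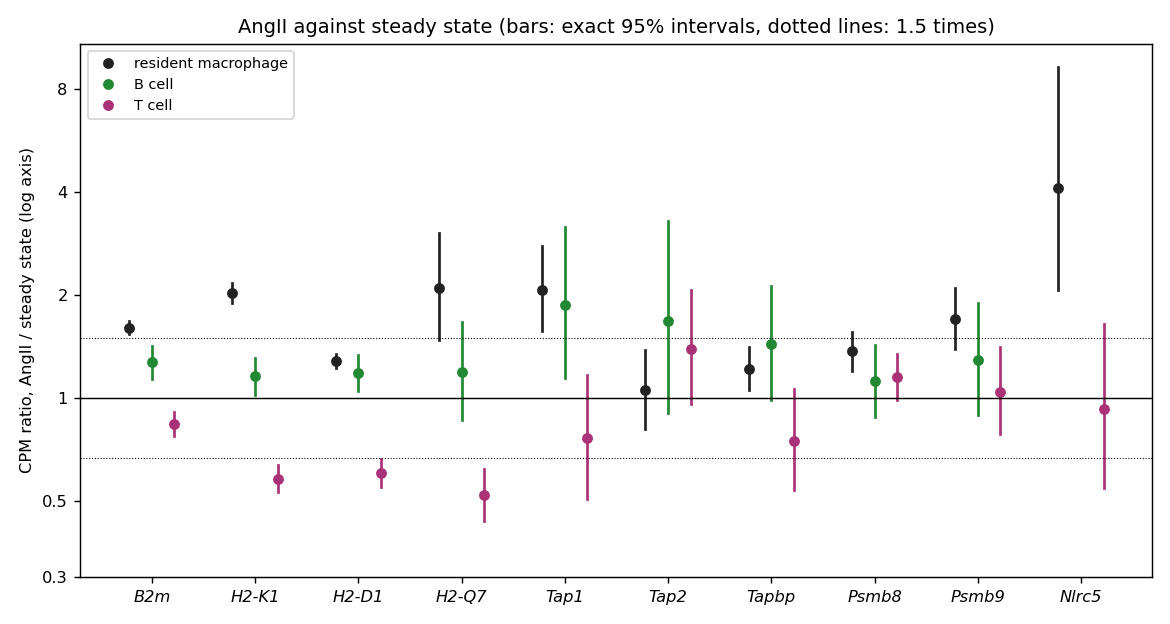
Ratio of CPM on AngII to CPM at steady state (log axis) for each gene in resident macrophages, B cells and T cells, with exact 95% intervals as bars and dotted lines at 1.5 times in either direction. *H2-K1* sits at 2.02 in resident macrophages and 0.581 in T cells, and *Nlrc5* has the highest ratio of resident macrophages at 4.11; genes with under 20 UMIs over both sides are left out.

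Within a library, cells that showed interferon-response RNA were then compared with cells of the same class that did not. A cell with at least 1000 UMIs was thinned to that number, and counted as detected with 1 UMI or more of *Ifit1*, *Ifit2*, *Ifit3*, *Isg15*, *Rsad2*, *Oasl2*, *Usp18*, *Cmpk2*, *Ifi44* or *Irf7*, none of which is a member. Detection was found in 34.5% of AngII resident macrophages (162 of 469, interval 30.2 to 39.0), 31.4% of classical monocytes (64 of 204), 20.2% of type-1 conventional dendritic cells (26 of 129), 14.04% of T cells (24 of 171) and 12.6% of steady-state resident macrophages (15 of 119, interval 7.23 to 19.9). In B and T cells of steady state it was found in 1 of 50 and 2 of 41. Shallower cells were left out, 163 of 632 resident macrophages on AngII and 1 of 120 at steady state. With all UMIs read, 62.5% and 43.7% of the remaining resident macrophages showed a gene of the list, so a cell without detection is not one without interferon-response RNA.

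In AngII resident macrophages, the members were higher by modest amounts in the detected cells. *Psmb9* was at 193 against 114 CPM (1.70, 1.40 to 2.05), *H2-Q7* at 81.8 against 47.8 (1.71, 1.27 to 2.31) and *Nlrc5* at 38.8 against 21.7 (1.78, 1.14 to 2.78). These 3 of 10 were at least 1.5 times higher, against a background of 6.56% of 9228 genes. The count rests on the settings. *H2-Q7* was at 0.961 (0.547 to 1.58) when 2 interferon genes were required and at 1.03 with the gamma list described further on. *Nlrc5* was at 1.03 as a mean over cells and 1.20 with detection at 2000 UMIs, and *Psmb9* at 1.38 (0.846 to 2.22) with levels from thinned cells. *Tap1* passed with detection at 2000 UMIs (2.002, 1.56 to 2.57). In the 20 and 44 cells with fewer than 2 markers of another list, *B2m* was at 1.77 and *H2-D1* at 0.704 (0.557 to 0.883). *B2m* (3266 against 2568 CPM, 1.27), *H2-K1* (1757 against 1416, 1.24), *H2-D1* (2274 against 2069, 1.10), *Tap1* (1.42), *Tapbp* (1.39) and *Psmb8* (1.45) had intervals above 1, and *Tap2* (1.22, 0.894 to 1.65) did not. The median ratio was 1.41 for the members and 0.959 for all genes. Detected cells were shallower, with a median of 2468 UMIs against 3983.

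Over all 1105 AngII macrophages, *Nlrc5* (37.3 against 18.5 CPM, 2.01, 1.48 to 2.73), *Tap1* (131 against 72.0, 1.82, 1.56 to 2.13), *Tapbp* (285 against 170.4, 1.67, 1.51 to 1.85) and *Psmb9* (1.59) passed 1.5 times, 4 of 10 against a background of 5.97% of 10850 genes. Of the other class I molecules, *H2-T24* (4.04), *H2-T22* (2.04), *H2-Q6* (2.004) and *H2-T23* (1.75) passed too, as did the regulator *Rfx5* (2.06). None of the 6 constitutive and 3 inducible proteasome genes outside the set passed, nor did any of the 5 of loading and trimming.

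Grouping those macrophages by the number of interferon genes detected gave a graded picture for some members and not for others. *B2m* was at 2391 CPM with 0 genes (755 cells), 3023 with 1 (240 cells), 3275 with 2 (69 cells) and 3635 with 3 or more (41 cells), and the interval with 0 genes (2351 to 2431) met none of the others, which overlapped with their neighbours. *Tapbp* went from 170.4 through 264 and 296 to 362 CPM. *Tap1* stood at 72.0, 108, 104 and 259 CPM (206 to 321 in the last group). In the resident macrophages among them it was at 78.0, 109.6 and 110.0 CPM with 0, 1 and 2 genes and 122 (65.1 to 209) in the 17 cells with 3 or more. *Nlrc5* stood at 18.5, 25.5, 46.4 and 78.1 CPM. *H2-K1*, by contrast, was at 1275 CPM with none and 1613, 1604 and 1652 with 1, 2 and 3 or more, the last 3 with overlapping intervals. *H2-Q7* (49.5, 74.9, 49.3 and 93.7 CPM) followed no order.

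**Figure D4:**
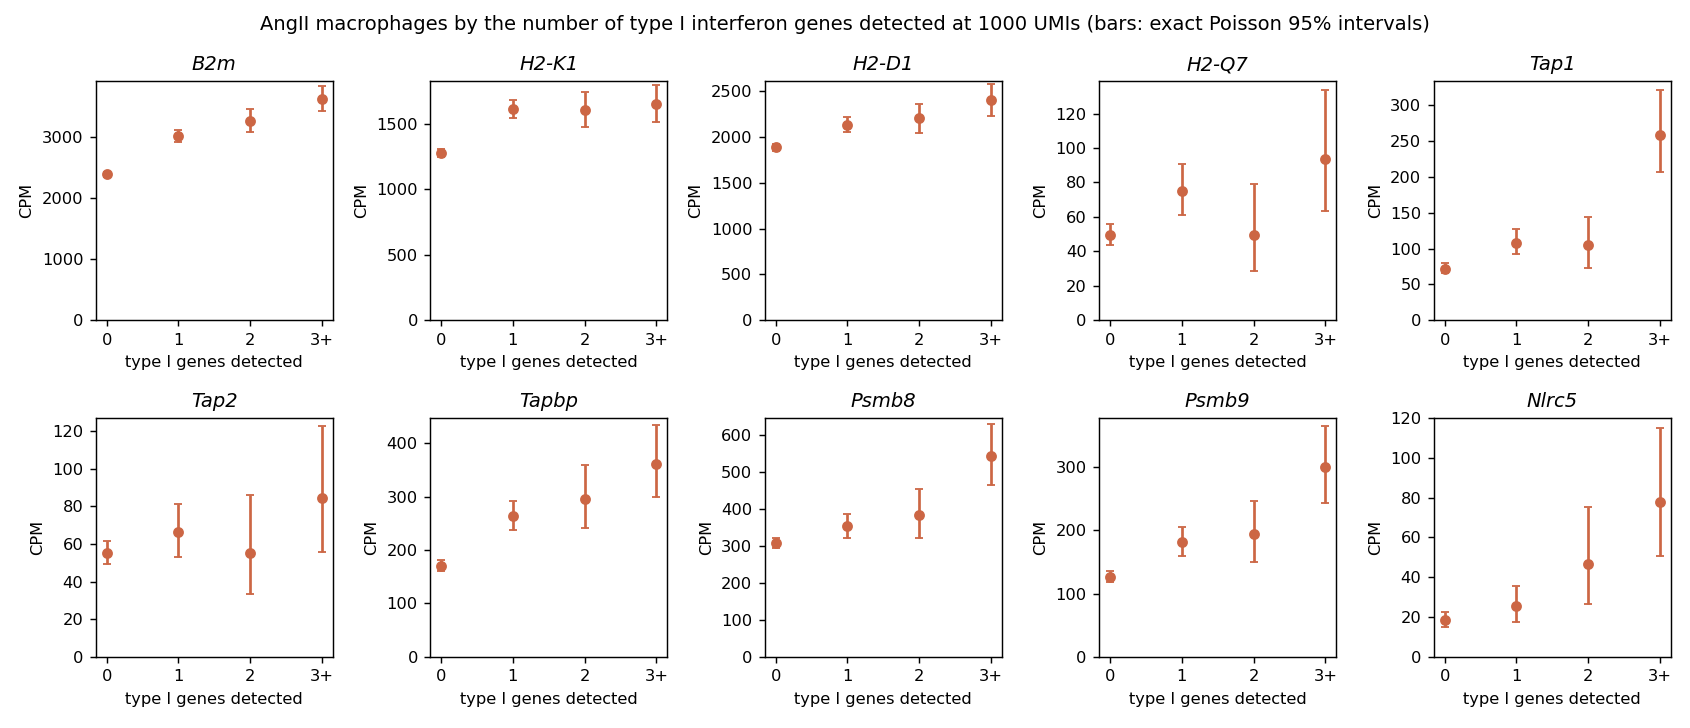
CPM (y axes from 0) of each gene in AngII macrophages with 0, 1, 2 or at least 3 of the 10 type I interferon genes detected after thinning to 1000 UMIs (755, 240, 69 and 41 cells), with exact Poisson 95% intervals as bars. *B2m* goes from 2391 to 3635 CPM over the groups, while *H2-K1* is level at 1604 to 1652 once any gene is detected.

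A second list of 10 genes that gamma interferon is known to raise (*Cxcl9*, *Gbp2*, *Gbp3*, *Gbp4*, *Gbp7*, *Iigp1*, *Igtp*, *Irgm1*, *Ifi47* and *Ciita*) divided the same macrophages further. With neither list detected (569 cells), *H2-K1* was at 1188 CPM, with type I alone (204 cells) at 1495, with gamma alone (186 cells) at 1588 and with both (146 cells) at 1767. *Tap1* was at 63.6, 101, 102 and 169 CPM and *Nlrc5* at 17.2, 29.4, 23.3 and 47.0. *Psmb8* was at 283 CPM with neither and 317 with type I alone (285 to 352), against 399 with gamma alone (365 to 436) and 476 with both. *Tapbp* was higher with type I alone (280 CPM, 250.2 to 313) than with gamma alone (230, 204 to 258), although those intervals overlapped. Within classes these contrasts were not the same. In resident macrophages *Psmb8* was at 302 CPM (259 to 349) with type I alone and 319 (272 to 372) with gamma alone. *Tapbp* was at 248 and 279.5 CPM there, with overlapping intervals. In classical monocytes *Psmb8* was at 455 and 453 CPM, and *Tapbp* at 240 and 156.5.

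The other AngII macrophage subsets were smaller. In the Ear2-type subset (27 detected cells against 81), *Tap1* (201 against 67.4 CPM, 2.98, 2.02 to 4.41), *Nlrc5* (2.58), *Tapbp* (2.48), *Psmb9* (2.12), *B2m* (3573 against 1916 CPM, 1.87, 1.72 to 2.02) and *H2-D1* (1.56) passed 1.5 times, 6 of 10 against 13.6% of genes. In reparative macrophages (61 against 138) only *Tapbp* did (1.59, 1.25 to 2.02), 1 of 10 against 10.6%, and *Psmb9* was level at 153 and 159 CPM. Macrophages of no subset (100 against 229) gave 4 of 10 against 10.7%, the same 4 genes as over all macrophages. Detected cells were deeper in the Ear2-type subset (median of 6385 against 3135 UMIs) and shallower in the reparative subset (1915 against 3624). A difference between the subsets was not tested.

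Classical monocytes (64 against 140) had *Nlrc5* at 48.1 against 20.8 CPM (2.32, 1.26 to 4.27), *Tap1* at 144 against 76.1 (1.90, 1.37 to 2.62) and *Psmb8* at 582 against 384 (1.52, 1.30 to 1.76), 3 of 10 against 9.51% of genes. Each fell under 1.5 times in some setting, *Nlrc5* to 1.18 (0.365 to 2.97) with 2 interferon genes required, *Tap1* to 1.24 as a mean over cells and *Psmb8* to 1.20 (1.005 to 1.42) with detection at 500 UMIs. *B2m* (1.06, 0.993 to 1.14) was level. Type-1 conventional dendritic cells showed no member past 1.5 times, 0 of 10 against 16.0%, and *Psmb8* (1380 against 1434 CPM) and *Psmb9* (877 against 884) were level there at their high values. *B2m* (1.32, 1.18 to 1.48) and *Tap1* (1.35, 1.05 to 1.72) had intervals above 1. Detected cells of that class were much shallower, with a median of 2116 UMIs against 14308, and the part of depth was not tested. Type-2 conventional dendritic cells (13 against 69) gave 6 of 9 against 15.9%, led by *H2-Q7* (2.78, 1.69 to 4.47), *Psmb9* (1.92) and *H2-K1* (2243 against 1182 CPM, 1.90, 1.69 to 2.13).

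**Figure D5:**
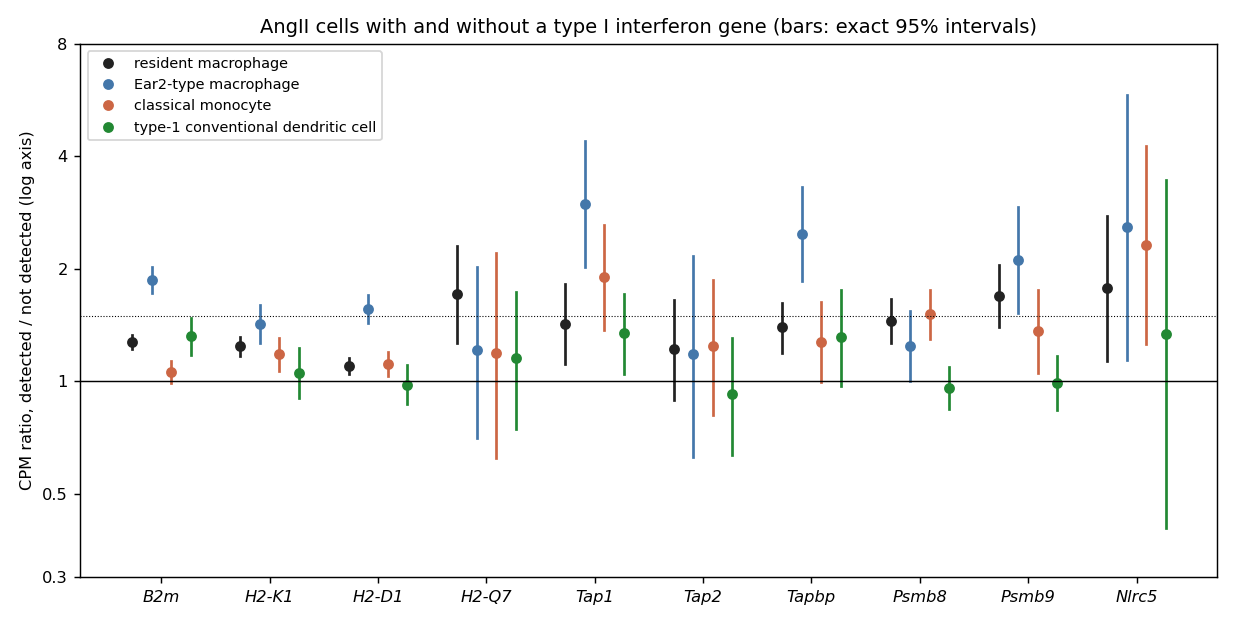
Ratio of CPM in AngII cells with a type I interferon gene detected to those without (log axis) for each gene in 4 gated classes, with exact 95% intervals as bars and a dotted line at 1.5 times. In Ear2-type macrophages *Tap1* reaches 2.98 and *B2m* 1.87, whereas *Psmb8* and *Psmb9* of type-1 conventional dendritic cells lie at 0.963 and 0.993.

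Lymphocytes and neutrophils had few detected cells. In T cells (24 against 147) *Psmb8* was the 1 of 10 members past 1.5 times (850 against 558 CPM, 1.52, 1.26 to 1.83), against 14.2% of genes, and *H2-K1* (1.08) and *H2-D1* (1.12) had intervals that held 1. B cells (12 against 59) gave *Tap1* (2.42), *Tapbp* (2.10), *Psmb9* (1.70) and *Psmb8* (1.51), 4 of 9 against 27.7%. In neutrophils (47 against 119) *H2-K1* was at 1075 against 683 CPM (1.57, 1.30 to 1.91), 1 of 8 members against 10.3% higher. *Tap2* was lower (0.664, 0.298 to 1.34), 1 of 8 against 21.5% lower.

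At steady state the detected macrophages were 17 against 114. *H2-Q7*, *Tap1*, *Tap2*, *Tapbp* and *Psmb8* passed, 5 of 9 members with enough UMIs, against a background of 14.3% of 7701 genes. Within resident macrophages (15 against 104) it was 4 of 9 against 14.4%, with *H2-Q7* at 62.8 against 22.5 CPM (2.79, 1.25 to 5.78), *Tap1* at 79.9 against 36.9 (2.16, 1.10 to 4.004), *Tap2* at 1.61 (0.856 to 2.86) and *Tapbp* at 1.55 (1.10 to 2.14). *B2m* (1.07, 0.946 to 1.20) and *H2-K1* (1.14, 0.948 to 1.35) had intervals that held 1 in these 15 cells. In resident macrophages without detected interferon genes, *H2-K1* was at 738 CPM at steady state and 1416 on AngII, and *B2m* at 1722 and 2568. With all UMIs read, the type I list itself was at 94.7 CPM at steady state and 225.5 on AngII in these cells. They were thus not matched for interferon-response RNA.

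Few members differed with the reporter at the settings used. *Yfp* UMIs were found in 93 of 120 resident macrophages at steady state (77.5%) and 185 of 632 on AngII (29.3%), against 4.88% and 2.74% of T cells (medians of 8307 and 1120 UMIs per T cell). Resident macrophages held a median of 9906 UMIs at steady state and 1864 on AngII, and *Yfp*+ cells of the AngII library were deeper than *Yfp*− cells (7459 against 1490), so the shares cannot be set against each other, and in a *Yfp*− cell absent and undetected reporter RNA cannot be told apart. On AngII, none of 10 members was at least 1.5 times higher in *Yfp*+ than in *Yfp*− resident macrophages, 0 of 10 against 8.62% of 9306 genes. None was lower by that much either, a direction for which no share over all genes is given. Some members were lower by that much in *Yfp*+ cells under other settings, each in 1 setting only, again without a share over all genes. In 27 and 132 cells with fewer than 2 markers of another list, *Psmb9* was at 0.391 (0.157 to 0.855). *Psmb8* was at 0.614 there (0.317 to 1.13), and *Tap1* at 0.536 with thinned cells (0.223 to 1.16), both with intervals that held 1. At the settings used, *H2-D1* was at 2239 against 1981 CPM (1.13, 1.08 to 1.19) and *B2m* at 2701 against 2899 (0.932, 0.895 to 0.970). The other 8 intervals held 1. At steady state *H2-Q7* (2.39, from 37 and 2 UMIs, 0.615 to 20.4) and *Psmb9* (1.55, 0.785 to 3.48) passed, 2 of 9 against 23.7% of genes, with intervals that held 1. *H2-Q7* was at 0.942 there as a mean over cells, and *Psmb9* at 1.06 (0.699 to 1.66) with at least 2 *Yfp* UMIs. *Nlrc5* had 9 UMIs in *Yfp*+ and 0 in *Yfp*− cells, too few to compare. *B2m* was at 1767 against 1484 CPM there (1.19, 1.04 to 1.37) and *H2-K1* at 729.7 against 905 (0.806, 0.677 to 0.966).

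Across 15 profiles, the classes of both libraries with at least 20 cells, *H2-K1* and *Psmb8* followed different genes. Among 3170 genes with a mean of at least 50 CPM, the highest Spearman correlations with *H2-K1* were those of *Arl5c* (0.761), *H2-T22* (0.714), *Clec2d* (0.707), *Ppdpf* (0.707) and *Il2rg* (0.700). For *Psmb8* they were *Psme1* (0.961), *Cnn2* (0.918), *Gpr132* (0.889), *Fyn* (0.871) and *Rbm3* (0.864). Among the members, *Psmb8* went most closely with *Psmb9* (0.839) and *H2-Q7* (0.707), and hardly with *H2-K1* (0.243) or *B2m* (-0.111). The profiles come from 2 libraries of unequal depth, and the macrophage subsets share lineage, so they are not independent. Both lists are the highest of 3170 correlations over 15 profiles, and how far they exceed chance was not tested.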

How the data were processed

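RNA of single CD45-positive adventitial cells was counted in 2 droplet libraries (10x Genomics 3′ chemistry). Per the study's methods, Cell Ranger 3.1.0 aligned reads to GRCm38.p6 with GENCODE M24 and an added eYFP sequence. The authors deposited raw UMI counts per gene and barcode, not normalized. Rows were matched to the 10 symbols. The members, the marker lists, the interferon lists and the comparisons were chosen with earlier results of these data known.

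The filter on cells was 300 to 6500 genes with a mitochondrial share of 5% or less. It left 306 steady-state and 4198 AngII cells, at medians of 9105 and 1092 UMIs. Each cell went to the list with the most distinct markers (14 lists of 8), at least 2 and without a tie, and macrophages were divided by 3 lists of 6. No member is a marker. Levels are summed UMIs of a class in CPM with exact Poisson intervals, ratios have exact conditional intervals and shares Clopper-Pearson intervals, all at 95%, covering counting error only. Genes needed 20 UMIs over both sides of a comparison, classes 10 cells, or 20 between the conditions. A ratio of 1.5 served as the limit, since 1 library per condition allows no test and no p-value. Backgrounds count all genes with 20 UMIs that pass it. Named are all 10 members, the other 26 pathway genes past 1.5 times, and the 5 genes most like *H2-K1* and *Psmb8* by Spearman correlation of log2(CPM + 10). *Apoe*, *Mrc1*, *Cd74*, *Cst3*, *Ptprc*, *Psmd1*, genes named as a group without passing 1.5 times and the comparison of dendritic cells lie outside this rule. Doublets were left in. The alternatives changed the cell filter, the gate, the depth, the scaling, the interferon call and the *Yfp* call, 1 at a time. The steps were also run on simulated counts. No outcome of that run is given here, so it is no evidence that the gates or the ratios hold in these libraries. Gene positions are from GENCODE M21 and promoter sequences from RefSeq, both on GRCm38. SciPy 1.17.1 gave the intervals, pandas 2.3.3 and NumPy 2.4.6 the sums, and Matplotlib 3.10.9 the plots, under Python 3.11.15. The values of 1 pathway gene outside the members are not reported here, so lists of pathway genes leave it out in every comparison. Flow cytometry and histology of the study were not analysed here.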

Additional observations from a re-analysis of the deposited data

Results flagged for a closer look

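The same contrast of AngII with steady state went opposite ways in resident macrophages and T cells, by at least 1.5 times each way for 2 heavy chains. Of all genes, 16.4% were higher by that much in resident macrophages and 16.8% lower in T cells. The share of all genes that did both was not counted. *H2-K1* was 2.02 times higher on AngII in resident macrophages and at 0.581 of its steady-state level in T cells, and *H2-Q7* was at 2.09 and 0.521. All 4 intervals lay clear of 1. *H2-D1* (1.28 and 0.605) and *B2m* (1.605 and 0.841) also went opposite ways, but did not pass 1.5 times in both classes. With fewer than 2 markers of another list, *H2-K1* in resident macrophages was at 1.82 (1.44 to 2.34), but *H2-Q7* was at 1.36 with an interval that held 1 (0.481 to 4.71). The difference between the classes was not tested, since each condition is 1 library.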

How the results depend on the processing

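Over 6 comparisons of the presenting and of the processing genes, 97 of 122 alternative values moved by less than the counting interval, 25 moved by more and 107 kept their direction. Requiring fewer than 2 markers of another list gave 1.16 for the presenting genes in resident macrophages (AngII over steady state), 1.135 for presenting and 1.99 for processing genes with interferon detection in AngII resident macrophages, and 0.771 for processing genes in *Yfp*+ over *Yfp*− cells on AngII. Thinning to 1000 UMIs gave 1.66 (processing, by condition), 1.17 (presenting, by interferon), 1.29 (presenting, interferon in classical monocytes), 0.804 (processing, *Yfp* at steady state), and 1.10 and 0.902 (presenting and processing, *Yfp* on AngII). Without mitochondrial and ribosomal genes the presenting genes in T cells were at 0.621. By interferon in AngII resident macrophages, presenting genes were at 1.16 with a lead of 2 markers, 1.16 as a mean over cells, 1.135 with detection at 2000 UMIs and 1.10 with the gamma list, and processing genes at 1.60 and 1.59 under the last pair of settings. By interferon in classical monocytes, presenting genes were at 1.06 with all barcodes, 1.22 as a mean over cells and 1.24 with 2 interferon genes, and processing genes at 1.24 as a mean over cells, 1.78 with 2 interferon genes and 1.16 with detection at 500 UMIs. By *Yfp*, presenting genes were at 0.934 at steady state with 2 EYFP UMIs and 0.974 on AngII with 3 markers. Among single genes, 491 of 577 values moved by less than the interval, and 526 kept the direction of the reported value. Of values past 1.5 times, 2 came to lie on the other side of 1, both *H2-Q7*: 0.961 by interferon with 2 genes in AngII resident macrophages, and 0.942 by *Yfp* at steady state as a mean over cells. Requiring fewer than 2 markers of another list, and thinning, left too few cells or UMIs for a value in some results. The cause of these changes was not tested. No paired analysis was possible because each condition has 1 library. Depth limits the rarest genes most: *Nlrc5* in steady-state resident macrophages rests on 9 UMIs.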
